A study of Mus musculus with 30 samples.

Results

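The troponin genes encode the calcium switch of striated muscle. Their members were the 8 genes Tnnt1, Tnnt2 and Tnnt3 (troponin T), Tnni1, Tnni2 and Tnni3 (troponin I), and Tnnc1 and Tnnc2 (troponin C). They were taken as all probe sets to which the platform annotation gave 1 of these symbols alone. This gave 12 of the 45037 probe sets that were not controls, and 0 probe sets with several symbols held a member. Tnnt2 and Tnni2 had 3 probe sets each and the other 6 genes 1 each.

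Troponin sits on the actin filament with tropomyosin. Troponin C binds calcium, troponin I holds back the contact of actin with myosin until calcium arrives, and troponin T ties the complex to tropomyosin. Troponin T and troponin I each come in slow skeletal, fast skeletal and cardiac forms, while troponin C has a fast form and a form shared by slow and cardiac muscle. The genes Tnnt2 and Tnnc1 are also active in embryonic skeletal muscle, and Tnnc1 remains the troponin C of slow fibres. MyoD is a transcription factor that binds E-boxes in DNA and can turn fibroblasts into skeletal muscle.

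RNA came from mouse embryonic fibroblasts of MyoD-/-/Myf5-/- animals, so cells of each group lacked both of these myogenic factors of their own. They carried a retrovirus for mouse MyoD fused to the hormone-binding domain of the estrogen receptor (ER-MyoD wt), for that fusion with lysines 99, 102 and 104 mutated so that they can no longer be acetylated (ER-MyoD RRR), or no insert (empty retrovirus). After transduction they were kept in differentiation medium with beta-estradiol, the ligand of the fused domain, for 0, 6, 12 or 24 h, as the design describes. The 30 arrays made 10 groups of 3, namely ER-MyoD wt at 0, 6, 12 and 24 h and both of the remaining constructs at 6, 12 and 24 h. The 0 h time point was analysed here for ER-MyoD wt alone, and its change from 0 h mixes the effects of medium, hormone and MyoD. The fusion protein is made from a retrovirus and not from the Myod1 locus, and the labels do not say that the 3 arrays of a group came from separate cultures. The p-values thus reflect array-to-array spread that may be technical.

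Array medians ran from 38.0 to 64.1, and replicate arrays correlated with r between 0.925 and 0.965. By that correlation 22 of the 30 arrays were nearest to an array of their own group, and the others to one of another group. The array ER-MyoD RRR 6 h replicate 2 stood out by its 3' to 5' probe ratios of 2.44 for Gapdh and 3.61 for Actb, the highest of the 30. The Myod1 probe set 1418420_at was higher in ER-MyoD wt than in empty retrovirus at 6, 12 and 24 h (log2 differences 2.32, 2.03 and 1.45), while a second Myod1 probe set, 1447675_x_at, did not pass at any of them. Mean signals of 1418420_at were 612 to 1185 in the ER-MyoD wt groups, 471 to 863 in the RRR groups and 167 to 228 in the control groups, and those of Myf5 were 200.8 to 494 over the 10 groups. Where these probes lie relative to the deleted part of the locus is not known, so they check nothing about the deletion. Of 8 fibroblast markers, 6 to 8 lay above the array's median on each of the 30 arrays. Signals are the deposited linear intensities, and log2 differences are of log2(signal + 16) after quantile normalization, which understates changes at low signal. Errors after ± are standard deviations (SD) beside a mean signal and standard errors beside a log2 difference, each with n = 3 arrays per group. A probe set passed at a Benjamini-Hochberg adjusted p under 0.05 over all 45037 probe sets in limma's test.

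Of the 8 troponin genes, 7 passed against the empty retrovirus, and they did so in 2 waves. Tnnt2, Tnnc1 and Tnnt1 were above the empty retrovirus from 6 h on in ER-MyoD wt cells. Tnnt3, Tnni1, Tnni2 and Tnnc2 had signals of at most 96.9 up to 12 h and rose between 12 h and 24 h. Tnni3, the adult cardiac troponin I gene, stayed below the array's median on all 30 arrays. These 2 sets were drawn after the values were seen, and they serve only to order the account.

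**Figure D1:**
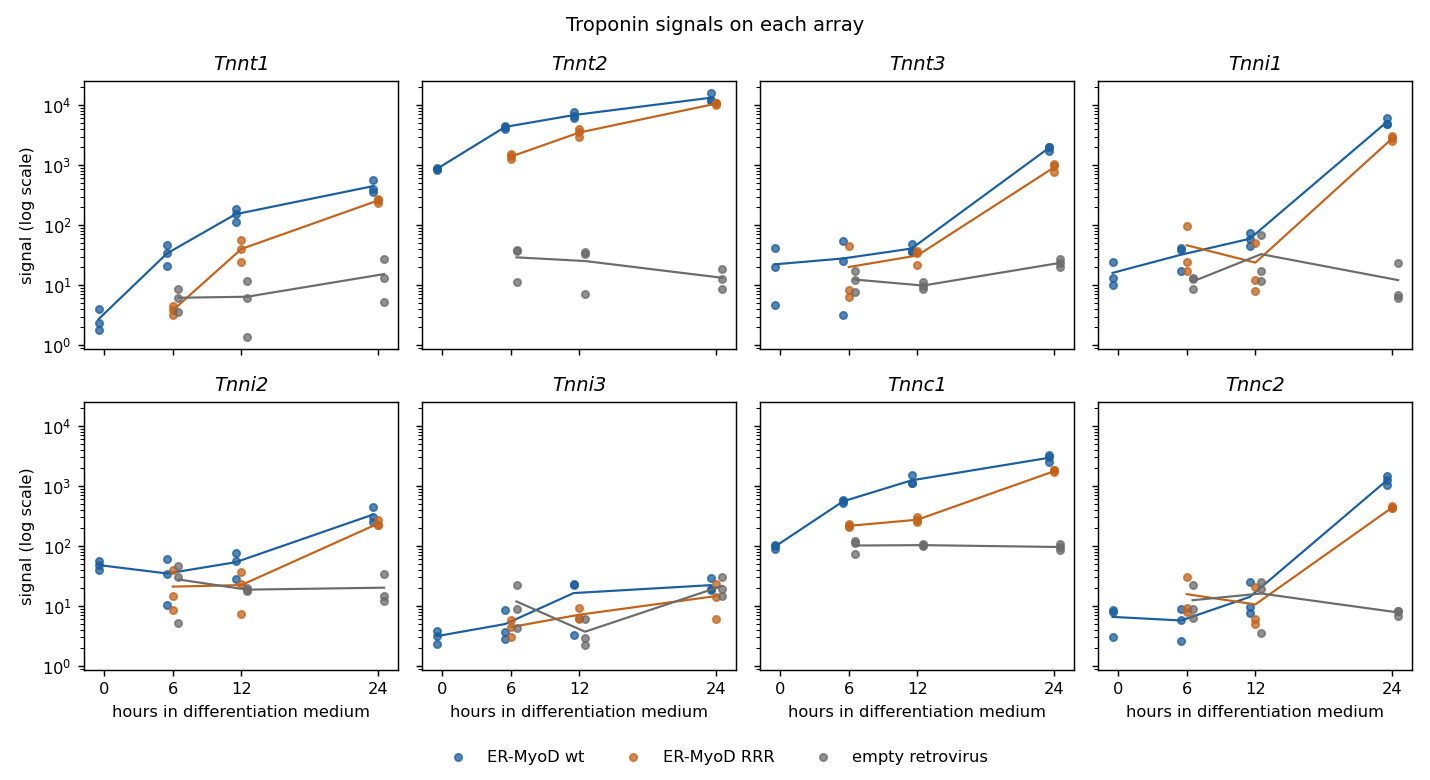
Signal (log scale) against hours in differentiation medium for the probe set with the highest mean of each troponin gene, 1 point per array and a line through the means of 3 arrays, in ER-MyoD wt (blue), ER-MyoD RRR (orange) and empty retrovirus (grey), with points shifted slightly sideways. In ER-MyoD wt Tnnt2, Tnnc1 and Tnnt1 climb over the whole course. In both fusions Tnnt3, Tnni1, Tnni2 and Tnnc2 climb between 12 h and 24 h, and Tnni3 stays low in each construct.

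Among the troponin T genes, Tnnt2, which encodes the cardiac and embryonic form, had the widest range of group means, 8.96 on the log2 scale for 1418726_a_at and 8.79 for 1424967_x_at. Its probe set 1424967_x_at gave signals of 894, 847 and 838 in ER-MyoD wt at 0 h, 4071, 4384 and 4554 at 6 h, 6686, 6161 and 7647 at 12 h and 12130.2, 15821 and 11929 at 24 h. In ER-MyoD RRR it gave 1244, 1509 and 1411 at 6 h, 2997, 3568 and 3939 at 12 h and 10767, 10159.7 and 11000.4 at 24 h. In the empty retrovirus it gave 38.8, 11.3 and 37.2, then 7.0028, 35.6 and 33.1, then 18.6, 8.72 and 12.5. All ER-MyoD arrays, those at 0 h included, lay above all empty retrovirus arrays. The log2 excess of ER-MyoD wt over the empty retrovirus was 6.68 ± 0.24 at 6 h (adjusted p = 1.65e-17), 7.52 ± 0.24 at 12 h (adjusted p = 9.9e-19) and 8.79 ± 0.24 at 24 h (adjusted p = 2.44e-20). The 0 h level had no matching control. From 0 h to 6 h Tnnt2 rose by 2.33 ± 0.24 in ER-MyoD wt (adjusted p = 5.35e-08).

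The other Tnnt2 probe sets were read beside it. Probe set 1418726_a_at, of the kind designed to match several transcripts of a gene, correlated with the first at r = 0.996 over 30 arrays. Its means in ER-MyoD wt were 884 ± 35.8, 4055 ± 155, 6641 ± 293 and 11887 ± 1726 in the order of time. For ER-MyoD RRR the means were 1398 ± 73.5, 3106 ± 419.9 and 10383 ± 576. The third, 1440424_at, correlated with the first at r = 0.855 and differed from it at 0 h. There it gave 13.4, 16.3 and 4.31, all below the array medians, before reaching 383, 170.4 and 259 at 6 h and 1456, 693 and 1121 at 24 h in ER-MyoD wt. In empty retrovirus cells 1418726_a_at fell from 12 h to 24 h (-0.96, adjusted p = 2.95e-05), from means of 30.1 ± 5.21 to 7.07 ± 4.50, which lie below the array medians. That fall did not pass when only these 2 groups were fitted (adjusted p = 0.0807). The order of the 10 groups for 1424967_x_at was ER-MyoD wt 24 h, RRR 24 h, wt 12 h, wt 6 h, RRR 12 h, RRR 6 h, wt 0 h and then the 3 empty retrovirus groups. In normalised log2 values, arrays of neighbouring groups overlapped between wt 6 h and RRR 12 h and among the empty retrovirus groups, and not elsewhere in that order.

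Tnnt1 encodes the slow skeletal troponin T. Its signals in ER-MyoD wt were 4.04, 2.32 and 1.78 at 0 h, 20.9, 34.9 and 45.8 at 6 h, 113, 156 and 187 at 12 h and 359, 576 and 403 at 24 h. ER-MyoD RRR gave 3.79, 3.17 and 4.43 at 6 h, 24.2, 56.6 and 39.4 at 12 h and 264, 277 and 237 at 24 h. The 9 empty retrovirus arrays lay between 1.38 and 27.3, each below its array's median. At 6 h the ER-MyoD RRR arrays thus overlapped the empty retrovirus arrays, and the difference between them was -0.11 ± 0.28 (adjusted p = 0.897), while ER-MyoD wt exceeded the empty retrovirus by 1.28 ± 0.28 (adjusted p = 0.00281). At 24 h both fusions were far above it, wt by 3.97 ± 0.28 (adjusted p = 1.01e-11) and RRR by 3.23 ± 0.28 (adjusted p = 1.69e-09). By group mean ER-MyoD wt 24 h, RRR 24 h and wt 12 h led in that order without overlap, RRR 12 h and wt 6 h overlapped each other below them, and the other 5 groups overlapped at the bottom.

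Tnnt3, the fast skeletal troponin T gene, rose later. Signals in ER-MyoD wt were 41.9, 4.64 and 20.1 at 0 h, 55.2, 25.1 and 3.19 at 6 h, 36.03, 48.5 and 37.8 at 12 h and 1750.4, 2032 and 2000.3 at 24 h. In ER-MyoD RRR they were 45.4, 8.39 and 6.36, then 22.04, 36.8 and 34.8, then 774, 1040.3 and 968 at 6, 12 and 24 h. The 24 h arrays of each fusion stood above all earlier arrays, and the empty retrovirus arrays stayed between 7.66 and 27.3. From 12 h to 24 h Tnnt3 rose by 5.06 ± 0.40 in ER-MyoD wt (adjusted p = 1.88e-10) and by 4.33 ± 0.40 in ER-MyoD RRR (adjusted p = 5.8e-09). A difference of ER-MyoD wt from empty retrovirus at 12 h (1.24 ± 0.40, adjusted p = 0.0475) did not pass in 23 of 30 fits that each left out 1 array (adjusted p from 0.0513 to 0.144).

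Among the troponin I genes, Tnni1, which encodes the slow skeletal form that predominates in the embryo, rose from 12 h to 24 h in both fusions. In ER-MyoD wt its signals were 13.4, 9.94 and 24.7 at 0 h, 17.2, 38.1 and 41.3 at 6 h, 74.5, 58.2 and 45.02 at 12 h and 4829, 6041 and 4809 at 24 h. ER-MyoD RRR gave 16.9, 96.9 and 24.7 at 6 h, 50.8, 8.08 and 12.3 at 12 h and 2873, 2519 and 3062 at 24 h. The highest of the 6 h arrays of ER-MyoD RRR was replicate 2, which also had the extreme Gapdh and Actb ratios. The rise from 12 h to 24 h was 6.04 ± 0.38 in ER-MyoD wt (adjusted p = 2.91e-12) and 6.34 ± 0.38 in ER-MyoD RRR (adjusted p = 2.72e-12). Empty retrovirus arrays reached at most 69.5, on the 12 h replicate with the highest array median.

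Tnni2, the fast skeletal troponin I gene, rose in the same interval from a less even base. Probe set 1416889_at gave 40.1, 48.6 and 55.4 at 0 h, 10.2, 60.02 and 33.96 at 6 h, 76.7, 27.8 and 56.04 at 12 h and 255, 442 and 298 at 24 h in ER-MyoD wt. In ER-MyoD RRR it gave 22.8, 7.36 and 36.6 at 12 h and 220.4, 266 and 225 at 24 h. The 24 h arrays of both fusions lay above all other arrays. The rise from 12 h to 24 h was 2.29 ± 0.41 in ER-MyoD wt (adjusted p = 0.000209) and 2.70 ± 0.41 in ER-MyoD RRR (adjusted p = 2.76e-05). Probe set 1438609_x_at showed the same step (2.35 and 1.90), with means of 220.2 ± 34.8 in ER-MyoD wt and 131 ± 38.2 in ER-MyoD RRR at 24 h. The third probe set, 1438608_at, whose listed source accession is that of 1438609_x_at, stayed between 1.26 and 16.1 on all 30 arrays and passed in none of the 19 comparisons.

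Tnni3 encodes the troponin I of adult heart. Its signals ran from 2.25 to 30.7 over the 30 arrays. At 24 h they were 18.9, 28.95 and 18.7 in ER-MyoD wt, 6.10, 14.1 and 23.6 in ER-MyoD RRR and 19.4, 14.5 and 30.7 in empty retrovirus, so the constructs overlapped. It did not pass in any comparison between constructs, and ER-MyoD wt minus empty retrovirus at 24 h was 0.10 ± 0.27 (adjusted p = 0.886). It passed over time in ER-MyoD wt from 0 h to 24 h (0.96 ± 0.27, adjusted p = 0.00805, or 0.0669 without ER-MyoD wt 24 h replicate 2). It also passed in empty retrovirus from 12 h to 24 h (0.90 ± 0.27, adjusted p = 0.0359), but not without any 1 of empty retrovirus 12 h replicates 1, 2 and 3 or 24 h replicates 1 and 3 (adjusted p from 0.0667 to 0.207). Both changes lie below the array medians.

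Tnnc1, the troponin C gene of slow and cardiac muscle, had its highest signals in ER-MyoD wt at each time. Signals in ER-MyoD wt were 87.5, 103 and 99.4 at 0 h, 515, 571 and 575 at 6 h, 1105, 1108 and 1508 at 12 h and 2545, 3247 and 3035 at 24 h. In ER-MyoD RRR they were 214, 228 and 206 at 6 h, 247, 304 and 269 at 12 h and 1685, 1809 and 1811 at 24 h. Empty retrovirus arrays lay between 73.4 and 119.7 at all 3 times and overlapped those of ER-MyoD wt at 0 h. At each time the 3 constructs did not overlap, with ER-MyoD wt highest and ER-MyoD RRR between it and the control. ER-MyoD wt exceeded empty retrovirus by 2.35 ± 0.15, 3.43 ± 0.15 and 4.82 ± 0.15 at 6, 12 and 24 h (adjusted p = 4.27e-12, 9.44e-16 and 4.08e-19). For ER-MyoD RRR these differences were 1.16 ± 0.15, 1.36 ± 0.15 and 4.19 ± 0.15 (adjusted p = 3.59e-06, 2.6e-07 and 1.32e-17). In the order of group means, from ER-MyoD wt 24 h through RRR 24 h, wt 12 h, wt 6 h, RRR 12 h, RRR 6 h and wt 0 h to the control groups, neighbours overlapped between RRR 12 h and RRR 6 h and from wt 0 h on.

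Tnnc2, the fast skeletal troponin C gene, stayed below the array medians until 12 h. In ER-MyoD wt it gave 8.62, 3.08 and 8.0008 at 0 h, 5.80, 8.77 and 2.58 at 6 h, 7.56, 9.44 and 25.3 at 12 h and 1029, 1235 and 1439 at 24 h. ER-MyoD RRR gave 29.9, 9.29 and 7.96 at 6 h, 6.17, 20.7 and 4.94 at 12 h and 422, 435 and 463 at 24 h. The 6 arrays of the fusions at 24 h were the 6 on which Tnnc2 lay above the array's median. Tnnc2 rose from 12 h to 24 h by 5.36 ± 0.32 in ER-MyoD wt (adjusted p = 7.71e-13) and by 4.12 ± 0.32 in ER-MyoD RRR (adjusted p = 2.04e-10). For Tnnc2, Tnni1 and Tnnt3 alike, ER-MyoD wt 24 h stood highest and RRR 24 h next without overlap, and all neighbours among the other 8 groups overlapped.

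**Figure D2:**
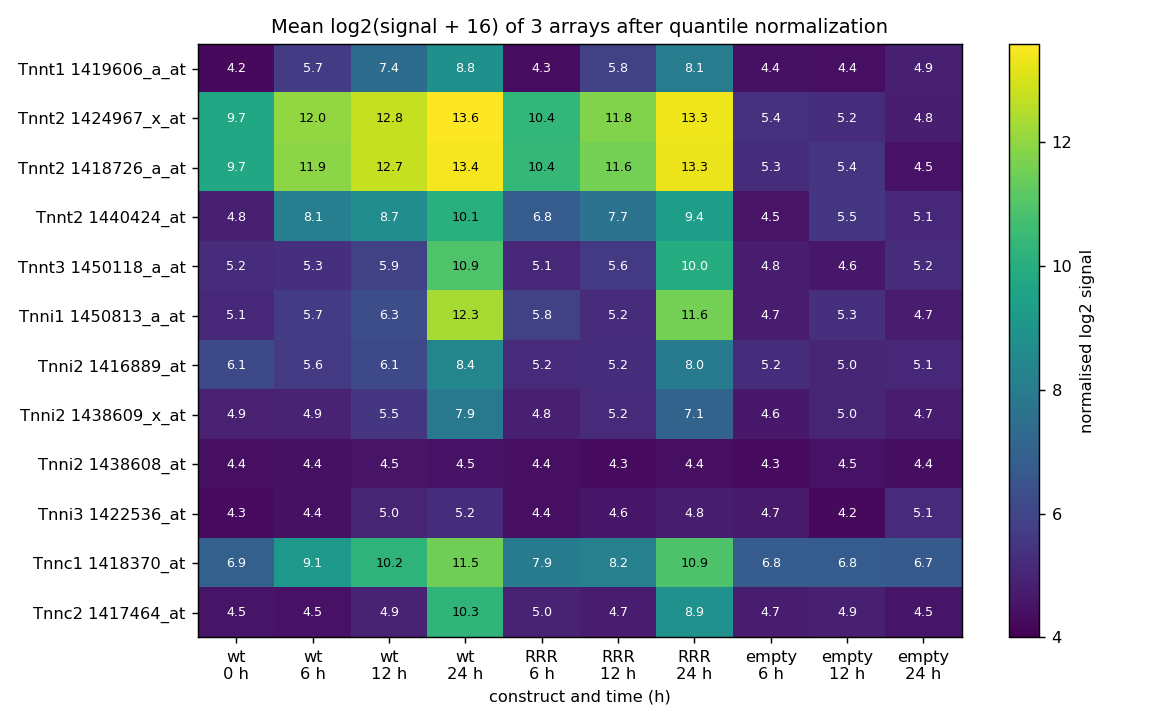
Mean normalised log2(signal + 16) of 3 arrays, printed in each cell, for the 12 troponin probe sets (lines) in the 10 groups of construct and time (columns), with colour from low (dark) to high (bright). Values may be read along a line but not between lines, since probe sets differ in brightness. Within each fusion the 24 h column is the brightest for 11 of 12 probe sets, all but Tnni2 1438608_at, and Tnnc1 and the first 2 Tnnt2 probe sets are brighter in ER-MyoD wt than in RRR at 6 h and 12 h.

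Counted over the 12 probe sets, 5 were higher in ER-MyoD wt than in empty retrovirus at 6 h (all 3 of Tnnt2, Tnnt1 and Tnnc1), 6 at 12 h (Tnnt3 added) and 10 at 24 h, and 0 were lower at any of these times. Of all 45037 probe sets, 3.85% were higher and 3.48% lower at 6 h, 4.46% and 4.59% at 12 h, and 7.33% and 9.46% at 24 h. The median log2 difference of the 12 was 0.74, 1.16 and 4.91 at these times, against -0.0130, -0.0124 and 0.0174 over all probe sets. In ER-MyoD RRR against the same control arrays, 4 were higher at 6 h, 5 at 12 h and 10 at 24 h (of all probe sets 4.05%, 2.89% and 5.15%). None of the 12 was lower, where 4.65%, 2.51% and 6.77% of all were. The 10 at 24 h were the same in both fusions, namely all but Tnni3 and Tnni2 1438608_at. The 4 at 6 h were Tnnc1 and the 3 of Tnnt2, and Tnnt1 joined them at 12 h.

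More troponin probe sets rose in the last interval, which was also the longest, than in either of the earlier ones. Rates per hour were not compared. From 12 h to 24 h 10 probe sets rose in ER-MyoD wt and 10 in ER-MyoD RRR, where 4.68% and 3.93% of all probe sets rose. From 6 h to 12 h 3 rose in each (Tnnt1, Tnnc1 and Tnnt2 1418726_a_at in ER-MyoD wt, and Tnnt1 with 2 Tnnt2 probe sets in ER-MyoD RRR), against 0.577% and 1.57% of all. From 0 h to 6 h 5 rose in ER-MyoD wt (6.08% of all), and from 0 h to 24 h 11 did (10.1% of all). In empty retrovirus 0 passed from 6 h to 12 h (0.0799% of all passed), where 1, Tnnt2 1440424_at, had an unadjusted p under 0.05 in limma's test, and from 12 h to 24 h 1 rose and 1 fell (6.87% of all passed). Of the rises from 6 h to 12 h in ER-MyoD wt, Tnnt2 1418726_a_at did not pass under median centring (adjusted p = 0.157), and with 1 in place of 16 added to the signals neither it (0.2396) nor Tnnt1 (0.0559) passed. In ER-MyoD RRR Tnnt1 did not pass when only the 2 groups were fitted (0.0804), nor Tnnt2 1424967_x_at with 1 added (0.0863). With 1 added, 6 and not 10 passed in ER-MyoD wt from 12 h to 24 h. The losses were the 3 Tnnt2 probe sets (adjusted p = 0.126, 0.317 and 0.125) and Tnnt1 (0.0707). The step of Tnnt2 1424967_x_at also did not pass without ER-MyoD wt 12 h replicates 1 or 2 or 24 h replicates 1 or 2 (0.0629 to 0.0803), and that of 1440424_at without ER-MyoD wt 12 h replicates 1 or 3 or 24 h replicates 1 or 3 (0.0544 to 0.138).

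The 12 h mean was also set against the 24 h mean within each construct. In ER-MyoD wt the mean at 12 h was 51.4% of the mean at 24 h for Tnnt2 1424967_x_at, 42.2% for Tnnc1 and 34.2% for Tnnt1. It was at most 2.12% for Tnnt3, 1.14% for Tnnc2 and 1.13% for Tnni1. In ER-MyoD RRR the shares of the first 3 genes were 32.9%, 15.5% and 15.5%, and those of the other 3 were at most 3.37%, 2.41% and 0.843%. Tnni2, at 16.1% in ER-MyoD wt, started from 12 h signals near the array medians. The shares of the late genes are upper limits, since their 12 h signals lay near or below the array medians, and for Tnnc2 the ER-MyoD wt mean at 12 h, 14.1 ± 9.72, was below that of the empty retrovirus, 16.1 ± 11.3. These genes were called late because their signals up to 12 h were low, so their small shares are no separate finding.

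**Figure D3:**
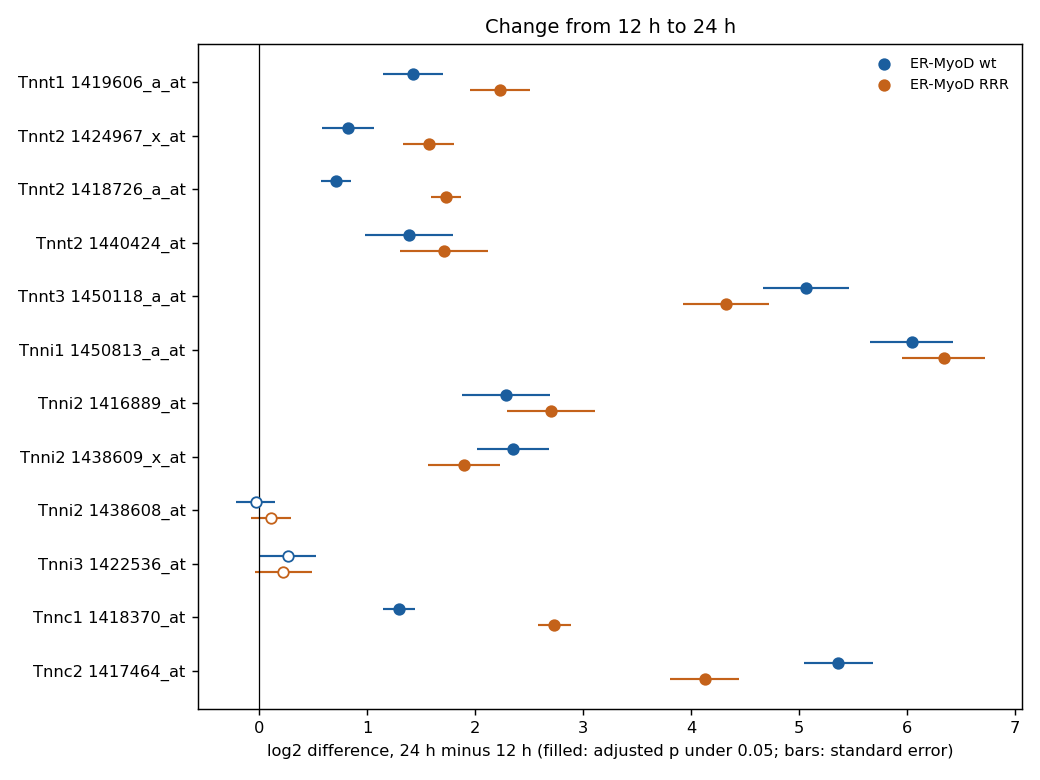
Log2 difference, 24 h minus 12 h, of the 12 troponin probe sets in ER-MyoD wt (blue) and ER-MyoD RRR (orange), with bars for the standard error and filled points for an adjusted p under 0.05. Tnni1, Tnnc2 and Tnnt3 step up by more than 4 in both, and for Tnnc1 and Tnnt2 1418726_a_at the step is larger in ER-MyoD RRR than in wt.

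The comparison of the 2 fusions asked what the loss of the acetylated lysines changed. The early troponin genes were lower in ER-MyoD RRR at 6 h and 12 h. By 24 h 1 Tnnt2 probe set and Tnnc1 drew closer to ER-MyoD wt. The gap of the late gene Tnnc2 widened from 12 h to 24 h, but that change did not pass in the main fit. At 6 h 4 of 12 probe sets were lower and 0 higher (of all probe sets 1.1% were lower and 0.582% higher), at 12 h 4 and 0 (0.338% and 0.32%) and at 24 h 2 and 0 (0.99% and 1.57%). The medians of the 12 log2 differences were -0.37, -0.93 and -0.66, against 0.0159, 0.00338 and -0.00238 over all probe sets. These comparisons use the same ER-MyoD wt arrays as those with the empty retrovirus. In samples of whole cultures, fewer muscle-like cells and less troponin RNA per cell cannot be told apart.

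Tnnt2 1424967_x_at in ER-MyoD RRR stood at 32.00% of the ER-MyoD wt mean at 6 h, 51.3% at 12 h and 80.1% at 24 h. Its log2 differences were -1.68 ± 0.24 (adjusted p = 0.000139), -0.99 ± 0.24 (adjusted p = 0.0456) and -0.24 ± 0.24 (adjusted p = 0.779). The 12 h call was marginal and did not pass in 22 of 30 fits that left out 1 array (adjusted p from 0.0504 to 0.1998) or under median centring (0.239). Over the 30 fits the difference ran from -1.12 to -0.92 and the adjusted p went down to 0.00171. Of 41 alternative fits 16 kept the call, among them that of only the 2 groups compared. The standard error pools all 10 groups. The SD of log2 values was 0.09 and 0.22 in the 2 groups compared, and 0.54, 0.77 and 0.20 in the dim empty retrovirus groups. For 1418726_a_at the differences were -1.54 ± 0.14 (adjusted p = 3.47e-07), -1.15 ± 0.14 (adjusted p = 1.95e-05) and -0.13 ± 0.14 (adjusted p = 0.809), and no left-out array ended its calls at 6 h and 12 h. With 1 added to the signals the 12 h adjusted p was 0.0569. At 24 h the 95% intervals of the 2 probe sets were -0.73 to 0.24 and -0.42 to 0.16. Their 24 h signals reached 15821 and 13831, where the highest signal in the data was 20986. The third Tnnt2 probe set was lower in ER-MyoD RRR by a like amount at 6 h (-1.32 ± 0.41) without passing (adjusted p = 0.103).

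Tnnc1 in ER-MyoD RRR stood at 39.04%, 22.05% and 60.1% of the ER-MyoD wt mean at 6, 12 and 24 h. The log2 differences were -1.19 ± 0.15 (adjusted p = 4.23e-05), -2.07 ± 0.15 (adjusted p = 3.18e-09) and -0.63 ± 0.15 (adjusted p = 0.0174). From 6 h to 12 h Tnnc1 rose in ER-MyoD wt by 1.11 (adjusted p = 7.74e-05), and in ER-MyoD RRR the change was 0.23 (adjusted p = 0.582). The test of that contrast itself gave -0.88 ± 0.21 and did not pass (adjusted p = 0.125). None of the 12 probe sets passed that test, where 0.0577% of all did and 2 of the 12 had an unadjusted p under 0.05 in limma's test. From 12 h to 24 h the gap closed by 1.44 ± 0.21 (adjusted p = 0.00247), with a rise of 2.73 in ER-MyoD RRR against 1.30 in ER-MyoD wt. The call at 24 h did not pass without ER-MyoD wt 24 h replicate 2 (adjusted p = 0.0507) or 3 (0.0951) or without ER-MyoD RRR 24 h replicate 1 (0.0890) or 3 (0.0555).

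The gap of Tnnt2 1418726_a_at also closed from 12 h to 24 h (1.02 ± 0.20, adjusted p = 0.0334), from -1.15 to -0.13. For 1424967_x_at that closing was 0.74 ± 0.34 and did not pass (adjusted p = 0.685). Of the 12 probe sets these 2, of Tnnc1 and Tnnt2, passed this test, as did 0.091% of all probe sets. Neither passed under median centring, where the closing was 1.23 for Tnnc1 (adjusted p = 0.145) and 0.76 for Tnnt2 (0.661). The Tnnt2 value did not pass on leaving out any 1 of 10 arrays of the 4 groups compared (0.0718 to 0.114), namely all but ER-MyoD wt 24 h replicate 2 and RRR 12 h replicate 3. The 24 h signals of 1418726_a_at in the fusions ran from 9766 to 13831, where the highest signal of all 45037 probe sets was 20986. Whether the top of the signal scale affected the 24 h difference was not tested. For Tnnc2 the gap changed the other way from 12 h to 24 h, from -0.19 to -1.43. That change was -1.24 ± 0.45 and did not pass (adjusted p = 0.520). With 64 added to the signals it was -1.27 and passed (adjusted p = 0.00709). The 12 h signals of Tnnc2 lay below the array medians.

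Tnnt1 in ER-MyoD RRR had 26.3% and 58.2% of the ER-MyoD wt mean at 12 h and 24 h. At 6 h its mean in ER-MyoD RRR, 3.80 ± 0.629, was at background, below that of the empty retrovirus, 6.17 ± 2.60, so no share is given. The log2 differences at 6, 12 and 24 h were -1.39 ± 0.28 (adjusted p = 0.00679), -1.55 ± 0.28 (adjusted p = 0.00343) and -0.74 ± 0.28 (adjusted p = 0.204). When only the 2 groups compared were fitted the adjusted p was 0.144 at 6 h and 0.0824 at 12 h. With 1 in place of 16 added to the signals it was 0.1296 at 12 h. With 64 added it was 0.0564 at 6 h and 0.0154 at 24 h, so there the 24 h difference passed. Without ER-MyoD wt 6 h replicate 3 it was 0.0603 at 6 h. The ER-MyoD RRR level at 12 h, 40.1 ± 16.2, lay beside the ER-MyoD wt level at 6 h, 33.9 ± 12.5. The matching pairs were 3501 ± 475 and 4337 ± 245 for Tnnt2 1424967_x_at, and 273 ± 28.9 and 554 ± 33.1 for Tnnc1. These pairs differ in time as well as construct and were not tested.

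Of the genes that rose after 12 h, Tnnc2 was lower in ER-MyoD RRR at 24 h, at 35.7% of the ER-MyoD wt mean (-1.43 ± 0.32, adjusted p = 0.00988, or 0.0571 without ER-MyoD wt 24 h replicate 3 and 0.319 with 1 added to the signals). Tnnt3 stood at 48.1% and Tnni1 at 53.9%, and the arrays of the 2 fusions did not overlap for either. Their log2 differences were -0.99 ± 0.40 (95% interval -1.81 to -0.17) and -0.75 ± 0.38 (-1.54 to 0.04). They did not pass (adjusted p = 0.253 and 0.437). They passed when only the 6 arrays at 24 h of the 2 fusions were fitted (0.0186 and 0.0171), and also over all 10 groups with 64 in place of 16 added to the signals (0.00457 and 0.0460). For Tnni2 1416889_at the difference was -0.45 ± 0.41 (-1.29 to 0.39). For Tnni2 1438609_x_at it was -0.80 ± 0.33 (-1.48 to -0.11, adjusted p = 0.282), and the arrays of the 2 fusions did not overlap. No troponin probe set was higher in ER-MyoD RRR than in ER-MyoD wt in a test that passed, at any of the 3 times. Without the 3 arrays that stood apart in earlier work on these data (ER-MyoD RRR 6 h replicate 2, empty retrovirus 12 h replicate 1 and ER-MyoD wt 24 h replicate 3), 0 passed at 24 h in limma's test, with Tnnc2 at 0.0507 and Tnnc1 at 0.0689.

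**Figure D4:**
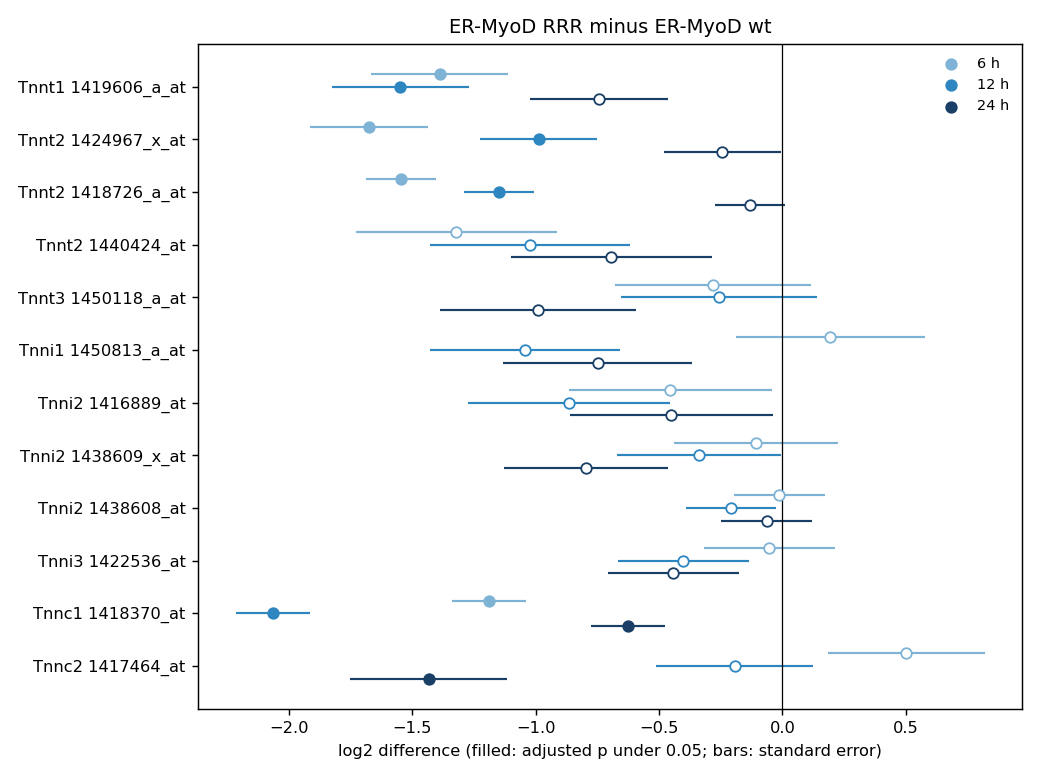
Log2 difference, ER-MyoD RRR minus ER-MyoD wt, of the 12 troponin probe sets at 6 h (light blue), 12 h (blue) and 24 h (dark blue), with bars for the standard error and filled points for an adjusted p under 0.05. The filled points lie to the left of 0, for Tnnt1, Tnnt2 and Tnnc1 at 6 h and 12 h and for Tnnc1 and Tnnc2 at 24 h.

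Several other measurements moved with these differences, and their part in them was not tested. Myod1 1418420_at was lower in ER-MyoD RRR by amounts that did not pass (log2 differences -0.22, -0.61 and -0.38 at 6, 12 and 24 h, adjusted p = 0.867, 0.734 and 0.765). The same held for Myf5 (-0.995, -0.49 and -0.56, adjusted p = 0.0703, 0.739 and 0.431). Of 12 skeletal muscle markers 3 were lower in ER-MyoD RRR at 6 h, 4 at 12 h and 0 at 24 h. Their summed signal was 2233 to 2437 against 6078 to 6743 at 12 h and 21719 to 24262 against 34251 to 38319 at 24 h, with median log2 differences of -0.74 and -0.71. Of 8 smooth muscle markers 4, 3 and 3 were lower at these times, with a summed signal at 6 h of 12071 to 15385 against 16503 to 21197. Of 8 fibroblast markers 4 were higher in ER-MyoD RRR at 24 h and 0 lower, with a summed signal of 22971 to 28606 against 13933 to 18683. Of all probe sets, 1.1%, 0.338% and 0.99% were lower in ER-MyoD RRR at 6, 12 and 24 h. At 24 h 1.57% of all probe sets were higher. The lowest signal in the data was 0.0474. No detection calls were used, so a signal above 0 does not show that a marker was expressed.

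Tnnt2 and Tnnc1 are also genes of heart muscle, so other cardiac genes were read beside them. Of 14 cardiac markers 0 passed in ER-MyoD wt against empty retrovirus at 6 h and 12 h and 1, Gata4, at 24 h (1.82, adjusted p = 7.51e-07). Of all probe sets 3.85%, 4.46% and 7.33% were higher at 6, 12 and 24 h, and 3.48%, 4.59% and 9.46% lower. The cardiac count of 1 in 14 at 24 h is thus near the share of all probe sets. The summed signal of the 14 was 650.4 to 962 in ER-MyoD wt at 24 h and 509.8 to 621 in empty retrovirus. Myh6 and Myl7, which mark heart muscle, had group means of at most 23.4 and 11.9. Of 7 markers of adult slow and fast fibres 2 were higher at 24 h, Myh1 and Myoz2, and Myh7, which stands in both lists, did not pass. Of 12 skeletal muscle markers 11 were (median 5.76), with a summed signal of 34251 to 38319 against 239.9 to 316. Of 4 measured macrophage and blood markers 1, Csf1r, was higher. Of 8 fibroblast markers 7 were lower at 24 h (median -1.81), with a summed signal of 13933 to 18683 against 34543 to 40182. Of 8 smooth muscle markers 5, 4 and 4 were higher at 6, 12 and 24 h. The part of these markers in the troponin differences was not tested.

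Partners of troponin on the thin filament split by gene. Of 15 genes, 4 were higher in ER-MyoD wt than in empty retrovirus at 6 h, 4 higher and 1 lower at 12 h, and 8 higher and 3 lower at 24 h (of all probe sets 3.85%, 4.46% and 7.33% were higher). Of all probe sets 4.59% were lower at 12 h and 9.46% at 24 h. The median difference of the 15 genes at 24 h was 0.72, against 0.0174 over all probe sets. The rises at 24 h were led by the sarcomeric actins Actc1 (7.34, adjusted p = 4.52e-17) and Acta1 (6.00, 1.21e-12) and by Lmod3, a gene for an actin filament nucleator (3.76, 1.47e-09). Among the tropomyosins, to which troponin T binds, Tpm2 was higher (1.30, 4.45e-08), and Tpm1 (-1.29, 3.55e-07), Tpm3 (-0.93, 3.08e-05) and Tpm4 (-1.41, 2.89e-11) were lower. Each of these genes was read by its brightest probe set, which need not report the muscle transcript. In ER-MyoD RRR against ER-MyoD wt 2 of the 15 were lower at 6 h, Tpm1 and Acta1, and 2 at 12 h, Tpm1 and Actc1 (of all probe sets 1.1% and 0.338% were lower). At 24 h 0 were lower and Tpm3 and Tpm4 were higher (of all probe sets 0.99% were lower and 1.57% higher).

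Of 15 genes that release, store or bind the calcium sensed by troponin C, 5 were higher in ER-MyoD wt than in empty retrovirus at 6 h, 5 at 12 h and 11 at 24 h, and 0 lower. Of all probe sets 3.85%, 4.46% and 7.33% were higher and 3.48%, 4.59% and 9.46% lower. The median difference at 24 h was 2.01 for the 15 against 0.0174 for all. At 24 h these included Hrc (5.41, adjusted p = 4.2e-17), a calcium-binding protein of the sarcoplasmic reticulum, Pvalb (4.27, 9.57e-14), the calcium buffer parvalbumin, and Ryr1 (2.56, 1.1e-07), the calcium release channel. In ER-MyoD RRR against ER-MyoD wt 0 differed at 6 h, 1 was lower at 12 h and 4 at 24 h (of all probe sets 1.1%, 0.338% and 0.99% were lower). The 4 were Ryr1 (-1.48), the calcium pump gene Atp2a1 (-1.04), Hrc (-0.91) and Pvalb (-0.87).

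The genome pairs each troponin I gene with a troponin T gene, and the pair of fast genes had the most similar course here. In the gene table of assembly GRCm38.p6, Tnni1 and Tnnt2 lie on chromosome 1 with 1 protein-coding gene, Lad1, between their starts. Tnnt1 and Tnni3 are next to each other on chromosome 7, and Tnni2 and Tnnt3 lie elsewhere on chromosome 7 with Lsp1 between them. Tnnt2 was high in ER-MyoD wt at 6 h, with a mean of 4337 ± 245, when Tnni1 had a mean of 32.2 ± 13.1. Over the 10 group means the 2 genes correlated at r = 0.638, Tnnt1 and Tnni3 at 0.667, and Tnni2 and Tnnt3 at 0.965. Tnni3 lay below the array's median on all 30 arrays and its group means spanned 0.99, so its r rests on dim signals. Genes on different chromosomes could be as alike, with r = 0.985 for Tnni1 and Tnnc2 and 0.959 for Tnnt1 and Tnnc1. These correlations are over 10 points that share their arrays and are given as a description.

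The promoters of 2 early genes (Tnnt2 and Tnnc1) and 2 late genes (Tnni1 and Tnnc2) are shown because MyoD binds E-boxes. Each is the 250 bases before 1 start of its gene, the one that the RefSeq promoter table (GRCm38.p6) lists first, 5′ to 3′ on the gene's strand, with each CANNTG in capitals. The table held 6 of the 8 genes. For Tnni1, Tnnt2 and Tnni3 that start lies inside the gene as the gene table gives it and not at its outer end. Their windows are thus not those of the outermost start. The Tnnt2 window ends at base 135836333, where the gene table starts the gene at 135836315.
Tnnt2 (chr1:135836084-135836333, plus strand): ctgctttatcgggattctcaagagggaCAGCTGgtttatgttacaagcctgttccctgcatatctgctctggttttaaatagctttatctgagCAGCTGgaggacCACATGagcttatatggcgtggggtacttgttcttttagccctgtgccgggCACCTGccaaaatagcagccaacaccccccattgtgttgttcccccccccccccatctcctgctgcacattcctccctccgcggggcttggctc
Tnnc1 (chr14:31208062-31208311, plus strand): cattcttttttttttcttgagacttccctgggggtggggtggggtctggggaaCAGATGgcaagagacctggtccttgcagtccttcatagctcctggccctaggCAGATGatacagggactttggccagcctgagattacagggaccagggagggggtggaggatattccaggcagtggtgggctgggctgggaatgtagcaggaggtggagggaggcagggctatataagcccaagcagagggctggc
Tnni1 (chr1:135799171-135799420, plus strand): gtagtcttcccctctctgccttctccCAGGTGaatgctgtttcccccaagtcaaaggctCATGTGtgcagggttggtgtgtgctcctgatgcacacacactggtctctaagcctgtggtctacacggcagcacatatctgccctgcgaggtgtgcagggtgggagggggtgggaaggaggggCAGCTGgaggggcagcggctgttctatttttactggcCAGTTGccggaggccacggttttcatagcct
Tnnc2 (chr2:164779735-164779984, minus strand): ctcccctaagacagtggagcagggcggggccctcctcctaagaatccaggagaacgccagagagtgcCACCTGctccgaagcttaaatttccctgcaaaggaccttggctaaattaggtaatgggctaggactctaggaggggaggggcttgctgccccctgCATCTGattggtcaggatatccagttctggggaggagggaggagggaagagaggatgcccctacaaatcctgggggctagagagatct
CANNTG, where the search gives the same matches on both strands, occurred 4 times in the Tnnt2 window, 4 times in that of Tnni1, 2 times each in Tnnc1 and Tnnc2, and 1 time each in Tnnt1 and Tnni3, which are not printed. Of 27025 promoters of the same length, 66.04% held at least 1 match. CAGCTG, a form of CANNTG that also reads the same on both strands, occurred 2 times in Tnnt2, 1 time in Tnni1 and 0 times in the other 4, and 12.8% of all promoters held it. The MEF2 motif (3.01% of promoters, both strands) and the CArG box (1.40%) had no match in the 6 windows. A match is a description of these letters and not a site, and the starts used in these cells were not measured.

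For the 7 members whose group means spanned at least 1 on the log2 scale (all but Tnni3), the genes with the most similar course over the 10 group means were listed, out of 2494 probe sets with 1 other symbol and a span of at least 2 on the log2 scale. For Tnnt2 they were Col4a1 (r = 0.990), Tmem109 (0.984) and Megf10 (0.975), and for Tnnc1 Usp20 (0.991), Mboat2 (0.986) and Plet1 (0.985). Tnnt1 ran with Prkx (0.986), Ppfia4 (0.984) and Chrng (0.984), which encodes the embryonic subunit of the acetylcholine receptor. Tnnc2 was nearest to Ttn, the gene of the giant sarcomere protein titin (0.996), Plppr3 (0.996) and Mylk4 (0.996), Tnnt3 to Unc45b, a myosin chaperone gene (0.995), Galnt5 (0.994) and Synpo2l (0.991), and Tnni1 to Ramp3 (0.993), Galnt5 (0.992) and Unc45b (0.992). Tnni2 was nearest to Pgam2, the muscle phosphoglycerate mutase gene (0.989), Akap6 (0.981) and Cpeb3 (0.981). Each r is over 10 points from 30 shared arrays and carries no test.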

How the data were processed

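Total RNA of 30 mouse cell samples was labelled with biotin and measured on 1-colour oligonucleotide arrays, per the labels. The authors deposited linear signal intensities, scaled so that every array had a trimmed mean (2% off each end) of 150, as the values show. Their software was not given in the sources used here. Precision is limited by having 3 arrays in a group, and no detection calls were used.

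Of 45101 probe sets 64 controls were left out. Signals were quantile normalized and tested as log2(signal + 16) with limma 3.58.1 in R 4.3.3 (1 mean per group, eBayes with trend, 20 residual degrees of freedom) in 19 comparisons, 2 of them interactions. P-values were two-sided and adjusted by the Benjamini-Hochberg method over 45037 probe sets. The fit was tested on simulated data. Genes outside the troponins were read by their brightest probe set. Groups and replicate numbers came from the titles. Tables were read with the R package data.table (version 1.17.8). Python 3.11.15 with pandas 2.3.3 and matplotlib 3.10.9 made the plots. Alternatives were another scaling, pseudocount or filter, 1 probe set per gene, fits of only the groups compared, no trend, array weights, a replicate block and arrays left out. The members, the lists of thin filament, calcium, cardiac, skeletal, smooth muscle, fibroblast, adult fibre and macrophage and blood genes, and the naming rule (all member probe sets, genes of lists where a result turns on them, and the 3 courses most like each member) were chosen with earlier results of these data known.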

Additional observations from a re-analysis of the deposited data

Results flagged for a closer look

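In 2 troponin probe sets the difference between ER-MyoD RRR and ER-MyoD wt changed from 12 h to 24 h in a test of that change itself. For Tnnc1 (1418370_at) it changed by 1.44 on the log2 scale (limma, adjusted p = 0.00247), from -2.07 to -0.63. For Tnnt2 (1418726_a_at) it changed by 1.02 (adjusted p = 0.0334), from -1.15 to -0.13. Neither passed under median centring, where the changes were 1.23 (adjusted p = 0.145) and 0.76 (0.661). The Tnnt2 change also did not pass with deposited scaling (adjusted p = 0.181), with 1 added to the signals (0.596) or with no trend in eBayes (0.162). Leaving out the 3 arrays that stood apart (0.0609), or any 1 of 10 single arrays, ended its call as well. Signals of Tnnt2 1418726_a_at reached 13831 at 24 h, against a highest signal in the data of 20986, and any effect of this was not tested. Groups of 3 arrays are too small for a test of single outlying arrays.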

How the results depend on the processing

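Over 12 kinds of alternative, 9234 values of the 228 single results were recomputed. Of these, 9102 kept their call or lack of one, 110 lost a call, 22 gained one, and 0 calls changed sign. Of the 9102, 6759 came from fits that left out 1 array. In the main fit 96 of the 228 results were called and 132 were not, and only the 96 could lose a call. The counts of troponin probe sets called at 24 h against the empty retrovirus stayed at 10 in both fusions when single arrays were left out. With 1 probe set per gene the counts were 3 of 8 for ER-MyoD wt minus empty retrovirus at 6 h, 2 for RRR minus empty at 6 h, 3 for RRR minus empty at 12 h and 3 for wt from 0 h to 6 h, since Tnnt2 and Tnni2 then count once. They were 1 for empty from 12 h to 24 h and 1 for the closing of the RRR minus wt gap from 12 h to 24 h, where Tnnt2 1418726_a_at is dropped and the kept 1424967_x_at did not pass (adjusted p = 0.274 and 0.509). With a pseudocount of 1 they were 1 for RRR minus wt at 12 h, 1 at 24 h, 1 for wt from 6 h to 12 h, 6 for wt from 12 h to 24 h and 1 for the closing gap. For RRR minus wt at 24 h the count was 5 with a pseudocount of 64, 4 when only the groups compared were fitted and 0 without the 3 arrays that stood apart, and it ranged from 0 to 2 over single left-out arrays. The closing gap gave 1 with deposited scaling, 0 with median centring, 1 without those 3 arrays and 1 to 2 over single left-out arrays. For empty retrovirus from 12 h to 24 h it was 1 with the filter on dim probe sets, 0 for only the groups compared, and 1 to 2 over single left-out arrays. The cause of changes under other scalings and pseudocounts was not tested.

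Replicate numbers were not taken as pairs, since 16 of 135 same-numbered pairs of arrays, and not every one, correlated above 0.1 in their deviations from group means. Of 30 arrays 18 were nearest to their own number, a hint from the data of structure that the numbers share. With the replicate block the change of the RRR minus wt gap from 6 h to 12 h gave 1 call in place of 0, Tnnc1 (adjusted p = 0.0358), and Tnnt2 1440424_at passed for RRR minus wt at 6 h (0.0476). Dim signals limit Tnni3, Tnni2 1438608_at, the late genes up to 12 h and the control levels of Tnnt2 and Tnnt1. The ER-MyoD wt minus empty log2 difference ran from 1.65 (pseudocount 64) to 4.83 (pseudocount 1) for Tnnt1 at 12 h and from 7.35 to 9.92 for Tnnt2 1424967_x_at at 24 h.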
